A study of Mus musculus with 29 samples.

Results

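The genes for 4.5S RNA, listed as Rn4.5s, were followed here by the RNA polymerase III (Pol III) bound to them in mouse liver. They were taken by name from the table of Pol III loci, and 20 of its 646 loci carried the name, all on chromosome 6. The animals were male C57BL/6 mice of 12 to 14 weeks, whose livers were collected before partial hepatectomy (PH), the surgical removal of most of the liver, at time point TP0, and 36, 48 and 60 h after PH (TP36, TP48 and TP60). Liver chromatin was immunoprecipitated with an antibody against RPC4, a subunit found in Pol III but in neither of the other nuclear RNA polymerases, and sequenced beside its input. There were 2 replicates per time point and 8 RPC4 libraries in all, each made from the pooled livers of several animals, so that the spread between single animals was not measured. All 4 groups share strain, sex and feeding regime, and the TP0 livers, which had not been operated on, were the common control of the 3 comparisons with TP0. According to the authors, PH was done at the very start of the day, and food was given at night only. TP36 and TP60 therefore fell at another time of day than PH and TP48. For them, time of day and feeding cannot be told apart from time since PH. Sham-operated livers were not analysed here. The chromatin came from whole liver, and fewer cells of a type with Pol III on a gene cannot be told apart from less Pol III per cell. The scores cover Pol III loci alone, so the tissue label could not be checked against liver markers.

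4.5S RNA is a small nuclear RNA of rodents such as mouse and rat, long known for pairing with polyadenylated RNA. Its sequence is related to the B1 family of short interspersed elements (SINEs) and through it to 7SL RNA, the RNA of the signal recognition particle. As in tRNA genes and SINEs, Pol III is recruited through an internal promoter made of an A box and a B box, to which TFIIIC binds, and transcription ends in a run of T. The genes lie in a tandem array, and near-identical copies of this kind make it difficult to say from which copy a sequenced fragment came.

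The copies formed 2 clusters (coordinates in NCBI37, mm9). The first cluster held 14 copies, named E1 to E14 here in the order of their coordinates because the array begins on the side of Ezh2. It ran from 47600760 to 47713356 of chromosome 6, between Ezh2, which codes for a histone methyltransferase, and Pdia4, which codes for a protein disulfide isomerase of the endoplasmic reticulum, with all copies on the minus strand. Neighbouring copies started 4239 to 4360 bases apart, except that E13 and E14 were 10432 bases apart and E9 and E10 54596 bases apart. Between E9 and E10 the assembly has a gap of 50000 undetermined bases, which begins 1663 bases after E9 and ends 2838 bases before E10, and how many copies lie in it is not known from this build. The second cluster held 6 copies, K1 to K6, from 128710725 to 128793400 of the same chromosome. They lay in pairs, with 35273 bases between the starts of K2 and K3 and 35445 between those of K4 and K5. Within a pair the starts were 3422 to 4828 bases apart. The start of Klrb1c lay between K2 and K3 and that of Klrb1b between K4 and K5. Both genes code for lectin-like receptors of natural killer cells. K1 to K4 were on the minus strand and K5 and K6 on the plus strand. None of the 20 copies overlapped a protein-coding gene of the GENCODE annotation, and their distance to the nearest start of such a gene was 10326 bases at the least (K3).

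Sequences are shown because those of the first cluster decide which copies can be told apart, and those of the second cluster differ from them at fixed places. They were read from the NCBI37 genome at the listed coordinates on the RNA strand. In the commonest sequence of the first cluster, capitals mark the bases replaced in every copy of the second cluster. In the other lines, capitals mark bases that differ from that commonest sequence.
Commonest first cluster sequence: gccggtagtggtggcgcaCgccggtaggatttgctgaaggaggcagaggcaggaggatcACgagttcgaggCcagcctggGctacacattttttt
E1: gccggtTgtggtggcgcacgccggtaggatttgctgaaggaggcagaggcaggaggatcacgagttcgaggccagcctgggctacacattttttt
K1: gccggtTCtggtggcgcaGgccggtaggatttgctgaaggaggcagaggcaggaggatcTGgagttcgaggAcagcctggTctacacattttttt
K2: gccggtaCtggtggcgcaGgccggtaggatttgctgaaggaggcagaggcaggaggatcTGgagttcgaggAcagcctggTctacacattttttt
K3: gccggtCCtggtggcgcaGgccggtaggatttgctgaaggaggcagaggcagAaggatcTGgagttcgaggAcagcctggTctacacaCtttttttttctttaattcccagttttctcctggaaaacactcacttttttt
K4: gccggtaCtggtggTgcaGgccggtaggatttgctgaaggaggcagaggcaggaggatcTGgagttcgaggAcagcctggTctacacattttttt
K5: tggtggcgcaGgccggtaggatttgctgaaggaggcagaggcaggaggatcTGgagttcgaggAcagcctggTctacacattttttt
K6: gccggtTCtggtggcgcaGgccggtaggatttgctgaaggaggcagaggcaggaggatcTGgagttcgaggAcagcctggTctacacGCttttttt

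The commonest sequence of 95 bases was shared letter by letter by 12 of the 14 copies of the first cluster, and it had 12 exact matches in the whole genome, all of them listed copies. E1 differed from it by A7T (positions count from 1 at the 5′ end of the commonest sequence). E10 was 1 base shorter, and its alignment also had C82G. In the second cluster all 6 listed sequences were different. Substitutions C19G, A60T, C61G, C72A and G81T were present in 6 of 6 K copies and in 0 of 14 E copies, and G8C in 5 of 6, since the listed K5 begins 8 bases inside the others. Single copies carried C15T (K4), G53A and A7C (K3) and A88G (K6). The listed K3 is 140 bases long and runs 45 bases past the end of the others. Identity was 97.9 to 100.0% within the first cluster, 95.8 to 100.0% within the second and 89.4 to 94.3% between them (median 92.6% over 84 pairs).

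The core of the B box, searched as GTTCGANNC on the RNA strand, was found in 14 of 14 E copies and in 0 of 6 K copies. All 6 K copies read GTTCGANNA instead, because C72A replaces its last base. Of the 433 listed tRNA genes 58.4% held GTTCGANNC and none held GTTCGANNA, while of all windows of 95 bases on chromosome 6, counted on both strands, 0.322% held the first and 0.102% the second. A form of the A box, TGGCNNA, was found in 19 of 20 copies, K4 being the exception through C15T. It is a common word, present in 15.6% of the windows. A run of 7 T closed every listed copy. In K3 that run closes the longer listed locus, and the first run of T in it has 9 T. These matches describe letters and not binding. Of the words of 12 bases in the commonest first cluster sequence, 22.6% also occurred in 1 or more of the 29 listed B1 SINEs, 2.38% in the 11 listed B3 SINEs and 0.0% in the 78 listed B2 SINEs. For K1 the share with B1 SINEs was 26.2%.

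The deposited score compares ChIP with input fragments, as a log2 ratio, in a locus extended by 150 bases on each side. Beside it stands the percentage of the score that came from fragments with multiple matches in the genome. In K1 to K6 this percentage was 0.0 to 2.81% in all 8 libraries. In the first cluster it was 0.661 to 10.2% for E1 and 18.8 to 46.9% for E12. It rose to between 30.4 and 82.2% for E10, E11 and E13, and to between 81.0 and 100.0% for the remaining 9 copies, 7 of which (E2 and E4 to E9) were above 99% in every library. Of the words of 50 bases in the extended locus, 85.8% were unique in the genome for E1, 12.7 to 14.5% for E10 to E12, 0.0% for the other E copies and 80.6 to 93.4% for the K copies. The order within these groups was not that of the multiple matches, since E12 had fewer unique words than E10 and E11 but a lower percentage. The 14 E scores are therefore not 14 separate measurements, and E1 and the 6 K copies are the ones whose scores rest almost entirely on fragments of their own.

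All 20 copies were above the cutoff of the library in all 8 libraries, the smallest margin being 1.05 on the log2 scale (E1 at TP0, replicate 1). The cutoffs, set by the authors, were 0.81 to 0.87 in replicate 1 and 1.33 to 1.55 in replicate 2. K copies scored high before PH, at 4.79 to 5.46 in replicate 1 and 4.46 to 5.18 in replicate 2 of TP0. Their median exceeded the scores of 86.2% and 84.7% of the 472 other occupied loci (above the cutoff in at least 1 library) in these libraries. The median of the first cluster was 3.30 in replicate 1 and 4.61 in replicate 2 of TP0, above 58.3% and 76.7% of the other loci.

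**Figure D1:**
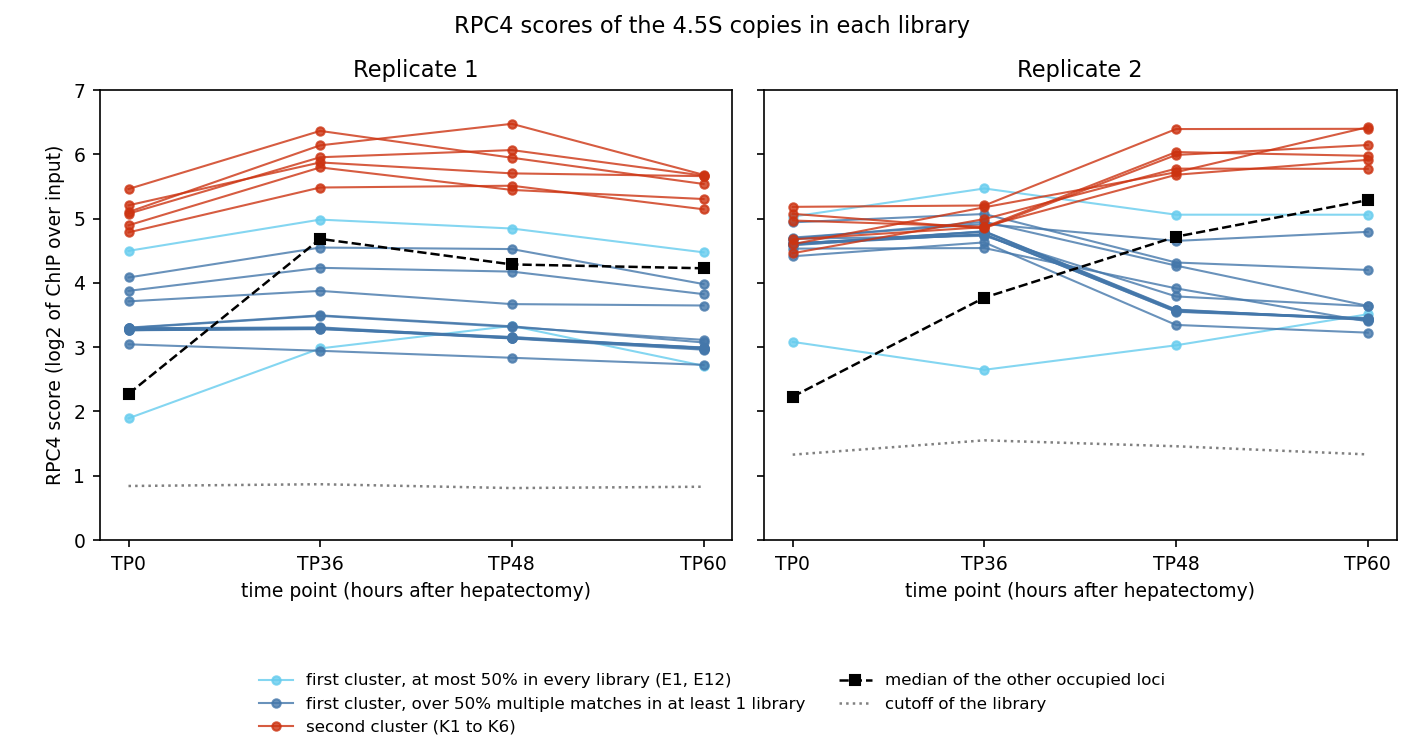
RPC4 scores (log2 ratio of ChIP over input) of each of the 20 copies at the 4 time points, with replicate 1 on the left and replicate 2 on the right; red lines are K1 to K6, light blue E1 and E12, blue the other E copies, the black dashed line the median of the 472 other occupied loci and the dotted line the cutoff. The K copies lie above all E copies in the 4 libraries of replicate 1, whereas in replicate 2 both clusters overlap at TP0 and TP36 and separate at TP48 and TP60.

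The 6 copies of the second cluster had higher mean scores at TP36, TP48 and TP60 than at TP0, and for 3 of them a change passed the test. Higher means were the rule, found at 474 of 487, 464 of 480 and 470 of 487 occupied loci. A rise passed the test at 141, 247 and 279 of these loci. In the following, scores are given in the order of replicate 1 and replicate 2. A change is the difference between the means of 2 time points, with its standard error (SE) from limma fitted over all 646 loci, and a copy is called changed when its q-value was under 0.05. The smallest SE of a copy was 0.42 and the largest 0.62, and with 2 libraries per time point no change of a copy under 1.02 passed. A copy that did not pass is not shown to be unchanged.

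K4, the copy with the substitution in the A box word, scored 5.08 and 4.60 at TP0. After PH its scores were 5.95 and 5.18 at TP36, 6.07 and 5.72 at TP48, and 5.67 and 6.42 at TP60. All 6 values after PH were above both values at TP0. Both libraries of a time point lay above both of TP0 at 68.2%, 92.1% and 83.4% of the occupied loci at TP36, TP48 and TP60. The mean rose by 1.05 at TP48 (SE 0.46, q = 0.0463, limma), or 2.08-fold, and by 1.21 at TP60 (q = 0.0321, limma), or 2.31-fold, while at TP36 the difference was 0.73 (q = 0.157, limma). K4 was the only copy with a call at more than 1 time point.

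K5 scored 4.79 and 4.46 at TP0, 5.48 and 4.99 at TP36, 5.51 and 5.78 at TP48, and 5.14 and 5.77 at TP60. Again no value after PH was as low as either value at TP0. The rise of 1.02 at TP48 passed the test (SE 0.42, q = 0.0413, limma), whereas the differences of 0.61 at TP36 (q = 0.181) and 0.84 at TP60 (q = 0.0665) did not. K6, the outermost copy, scored 5.10 and 5.07 at TP0, 6.14 and 4.85 at TP36, 6.47 and 5.99 at TP48, and 5.68 and 6.14 at TP60. At TP36 its replicates stood on either side of TP0. K6 rose by 1.14 at TP48 (SE 0.49, q = 0.0439, limma) and stood 0.82 above TP0 at TP60 (q = 0.0950).

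The remaining K copies did not pass the test. K1 scored 5.21 and 4.97 at TP0, 5.87 and 4.87 at TP36, 5.70 and 5.68 at TP48, and 5.66 and 5.91 at TP60. K2, the copy with the highest score at TP0, had 5.46 and 5.18 at TP0, 6.36 and 5.20 at TP36, 5.95 and 6.39 at TP48, and 5.54 and 6.40 at TP60. For both, the libraries of TP48 and TP60 lay above those of TP0, whereas the libraries of TP36 overlapped them. K3, with the longer listed locus, scored 4.90 and 4.68 at TP0, 5.80 and 4.87 at TP36, 5.45 and 6.03 at TP48, and 5.30 and 5.98 at TP60. Differences from TP0 of these 3 copies ran from 0.60 to 0.95 at TP48 (q between 0.0610 and 0.119, limma) and from 0.65 to 0.85 at TP60. Over all 6 K copies the median change was 0.50 at TP36, 0.99 at TP48 and 0.83 at TP60. Within replicate 1 and within replicate 2 it amounted to 0.89 and 0.11 at TP36, and to 0.43 and 1.26 at TP60. Without replicate 1 of TP36 the median change at TP36 was -0.0185. The difference in size between the replicates thus changed sides between TP36 and TP60, as it did over all occupied loci, whose median change was 1.25 and 0.66 at TP36 and 0.76 and 1.78 at TP60.

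In the first cluster, no copy passed the test in any comparison. E1, at the end towards Ezh2 and the copy with the lowest mean score at TP0, scored 1.89 and 3.08 at TP0, 2.98 and 2.65 at TP36, 3.33 and 3.03 at TP48, and 2.71 and 3.51 at TP60. In replicate 1 all values after PH were higher than at TP0, by 1.09, 1.44 and 0.82 in the order of time, but in replicate 2 the differences were -0.43, -0.053 and 0.43. The mean differences of 0.33, 0.69 and 0.62 (SE 0.50 each) had q-values of 0.357, 0.117 and 0.155 (limma). E12, with the highest mean score of the first cluster at TP0, scored 4.497 and 5.03 at TP0, 4.98 and 5.47 at TP36, 4.85 and 5.06 at TP48, and 4.47 and 5.06 at TP60. Its values overlapped between TP0 and each later time point, and its mean differed from TP0 by 0.46 at TP36, 0.19 at TP48 and 0.0032 at TP60 (SE 0.43).

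The copies E2 and E4 to E9, whose scores came almost wholly from shared fragments, moved as a single measurement. Within a library, 6 of them lay within 0.023 to 0.054 of each other, and E9 was the lowest of the 7 in 8 of 8 libraries, by 0.12 to 0.34 below the next (E9 was singled out after its values were seen). The 7 copies scored 3.04 to 3.30 in replicate 1 and 4.41 to 4.61 in replicate 2 of TP0. At TP36 their scores were 2.94 to 3.31 and 4.63 to 4.80, at TP48 2.83 to 3.16 and 3.35 to 3.59, and at TP60 2.72 to 2.99 and 3.23 to 3.45. All 7 copies were lower than at TP0 in both replicates at TP48 and at TP60, with changes of -0.11 to -0.32 in replicate 1 and of -0.998 to -1.19 in replicate 2. Of all occupied loci, these copies included, 9 of 480 at TP48 and 13 of 487 at TP60 were lower in both replicates. The mean changes of E3, E13 and E14 had the same sign as those of the 7 copies at each time point. Within replicate 1, however, E3 and E14 stood 0.021 and 0.016 above TP0 at TP48. The mean of E10 stood 0.34 above TP0 at TP36, 0.20 above it at TP48 and -0.0069 from it at TP60, and that of E11 0.24, -0.16 and -0.40 from it.

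**Figure D2:**
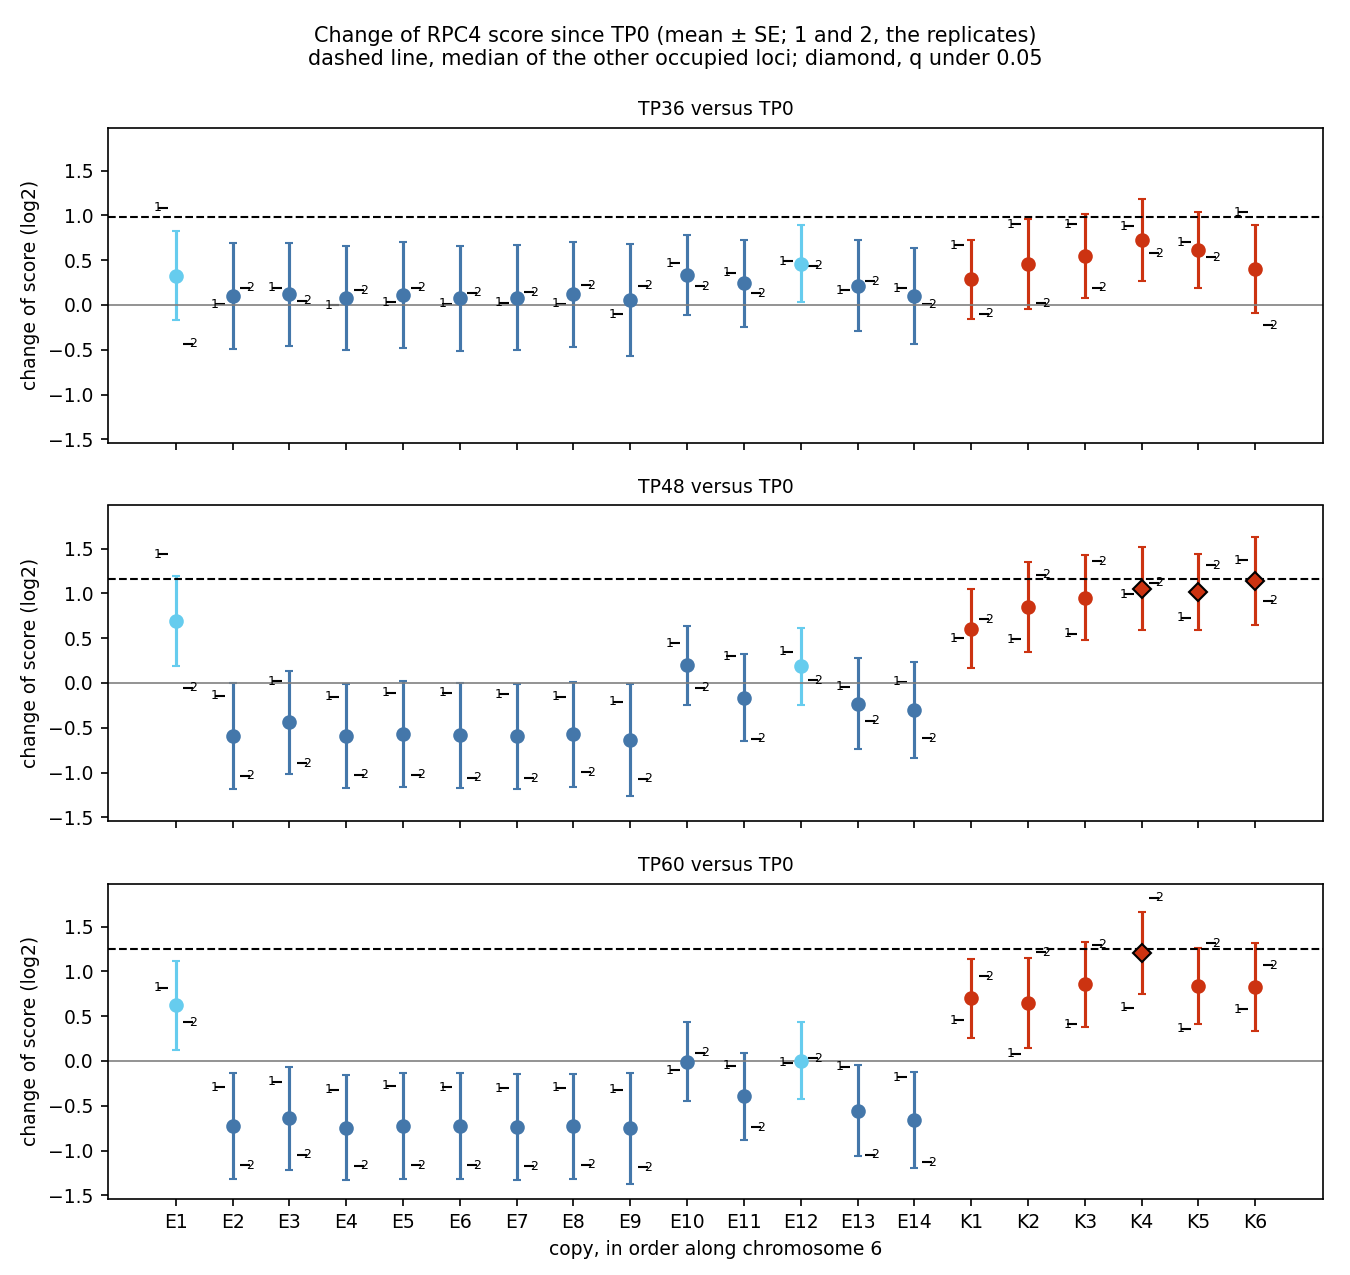
Change of the RPC4 score from TP0 (log2) for each copy in its order along the chromosome, at TP36, TP48 and TP60. Filled points with bars are the mean change and its SE from limma, black ticks with the numbers 1 and 2 the change within each replicate, diamonds the calls at q under 0.05, and the dashed line the median of the other occupied loci (0.98, 1.16 and 1.25). Red marks K1 to K6, light blue E1 and E12, and blue the other E copies; all called points are K copies, and most E copies lie below 0 at TP48 and TP60, further in replicate 2 than in replicate 1.

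Counted over all copies, 0 of 20 rose by TP36, where the share among 487 occupied loci was 29.0% (141 loci, limma). At an unadjusted p under 0.05 there was also no copy, beside 194 of the 487 loci. At TP48 3 of 20 copies rose (K4, K5 and K6) against a background of 51.5% of 480 loci, and at TP60 1 of 20 (K4) against 57.3% of 487 loci. The 20 include the 14 E copies, most of which share fragments and are not separate measurements. Of the 6 K copies alone, 3 rose at TP48, which is near the background share, and 1 at TP60. At TP48 the called copies dropped to 0 when any of the 4 libraries of TP0 and TP48 was left out. At TP60 they dropped to 0 without replicate 1 or 2 of TP0 or without replicate 2 of TP60, and rose to 4 without replicate 1 of TP60. With Benjamini-Hochberg adjustment in place of q-values no copy passed at TP36, TP48 or TP60, where 18.9%, 27.7% and 36.1% of the occupied loci did. With a term for the replicate in the fit, 0, 1 and 1 copies changed at TP36, TP48 and TP60. The 3 comparisons share the libraries of TP0. Between TP36, TP48 and TP60, 0 of 20 copies changed by q (limma), beside 0.0% of the occupied loci. At an unadjusted p under 0.05 there were also 0 copies, beside 5 of 488 occupied loci between TP36 and TP48, 7 of 490 between TP36 and TP60 and 15 of 487 between TP48 and TP60.

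The median change of the copies lay below that of all occupied loci. The median change over the 20 copies was 0.23 at TP36, -0.20 at TP48 and -0.48 at TP60, compared with 0.96, 1.12 and 1.22 over all occupied loci. In the first cluster alone it was 0.11, -0.50 and -0.69. Copies that share their fragments weigh heavily in these medians, and the sign at TP48 and TP60 turned without the copies of over 50% multiple matches. The medians were then 0.46, 0.90 and 0.76 over 8 copies, and 0.39, 0.44 and 0.31 over E1 and E12. tRNA genes had medians of 0.97, 1.31 and 1.37 and SINEs of 0.81, 1.11 and 1.40. The K copies, at 0.50, 0.99 and 0.83, also lay below the medians of the tRNA genes, and all 6 K copies separated completely from TP0 at TP48 and at TP60, as did 92.1% and 83.4% of the occupied loci. At TP36 2 of 6 K copies did so, beside 68.2% of the occupied loci. In the other direction, E13 lay below both TP0 libraries in both libraries of TP60. Of the 487 occupied loci, E13 included, 2 did so (0.411%). Its scores were 3.71 and 4.69 at TP0 and 3.65 and 3.64 at TP60, so the margin was small. The change did not pass the test (q = 0.1785, limma), and 68.2 to 82.2% of its score came from multiple matches. Neither these medians nor the shares of calls were matched for the score at TP0. There the K median exceeded 86.2% and 84.7% of the other occupied loci in the 2 replicates. According to the authors, loci scoring high at TP0 mostly showed no significant change by TP36.

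These directions depend on the scale. Scores were used as deposited, and the median over all 646 loci rose from TP0 by 1.72 at TP36, 1.72 at TP48 and 1.93 at TP60. When each library was centred on that median, all 20 copies, K copies included, fell with q under 0.05 at each of the 3 time points, beside 66.7%, 52.5% and 60.8% of the occupied loci. With Benjamini-Hochberg adjustment 20, 15 and 19 of the copies passed, and at TP48 16 had an unadjusted p under 0.05 (limma). The median of the 154 loci that never passed a cutoff shifted by 0.021, 0.026 and 0.075, and centring on it left 0, 3 and 1 copies that rose.

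Libraries TP0 replicate 2 and TP36 replicate 2 stood apart at the first cluster. The median of the K copies exceeded that of the E copies by 0.21 and 0.16 in them, and by 1.79 to 2.61 in the other 6 libraries. Replicate 2 minus replicate 1 of the first cluster median was 1.32 at TP0 and 1.47 at TP36, but 0.35 at TP48 and 0.45 at TP60. At the 472 other occupied loci, the differences were -0.043, -0.91, 0.43 and 1.06, and at the K copies -0.27, -0.98, 0.059 and 0.46. Within replicate 1 the first cluster median changed by 0.097, -0.075 and -0.25 from TP0, and within replicate 2 by 0.18, -0.95 and -1.15. Without TP0 replicate 2 the median change of the first cluster was 0.75, 0.18 and -0.053, compared with 0.11, -0.50 and -0.69 with all libraries, so that the sign at TP48 turned. At TP60, 11 of 14 copies were lower than at TP0 in both replicates, beside 2 of the 467 other occupied loci. Most of these copies share fragments, so they do not count as 11 separate falls. Without TP36 replicate 2 the median change at TP36 was -0.57.

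The percentage from multiple matches moved with this pattern. Averaged over E10 to E13, it was 67.7% and 68.3% in the libraries TP0 replicate 2 and TP36 replicate 2 and 44.4 to 53.7% in the others. At TP0 the score of replicate 2 exceeded that of replicate 1 by 0.53 at E12 and by 1.29 to 1.37 at the 7 copies with over 99% of multiple matches. E1 went against this order at TP0, with 1.19, though little of its score was shared. Whether shared fragments had a part in the replicate difference was not tested. Other loci with multiple matches resembled the array in some comparisons only. Of the 5S rRNA genes (Rn5s), which are also tandem copies and of which 50 of 51 had over 50% of multiple matches in some library, all 49 occupied at TP0 or TP36 were higher at TP36 in both replicates, with a median change of 1.09. After TP36 the Rn5s genes moved down like the array, with 45 of 49 lower at TP48 than at TP36 in both replicates, beside 13 of 14 E copies and 60 of 468 loci other than 4.5S copies, these Rn5s genes included. None of these differences between TP36 and TP48 passed the test. Replicate 2 exceeded replicate 1 at these genes by 0.71 at TP0 and 0.84 at TP36, and by 0.52 and 0.53 at TP48 and TP60. The other loci with over 50% of multiple matches (19, of which 12 were occupied at TP0 or TP36) had a median change of 1.46.

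**Figure D3:**
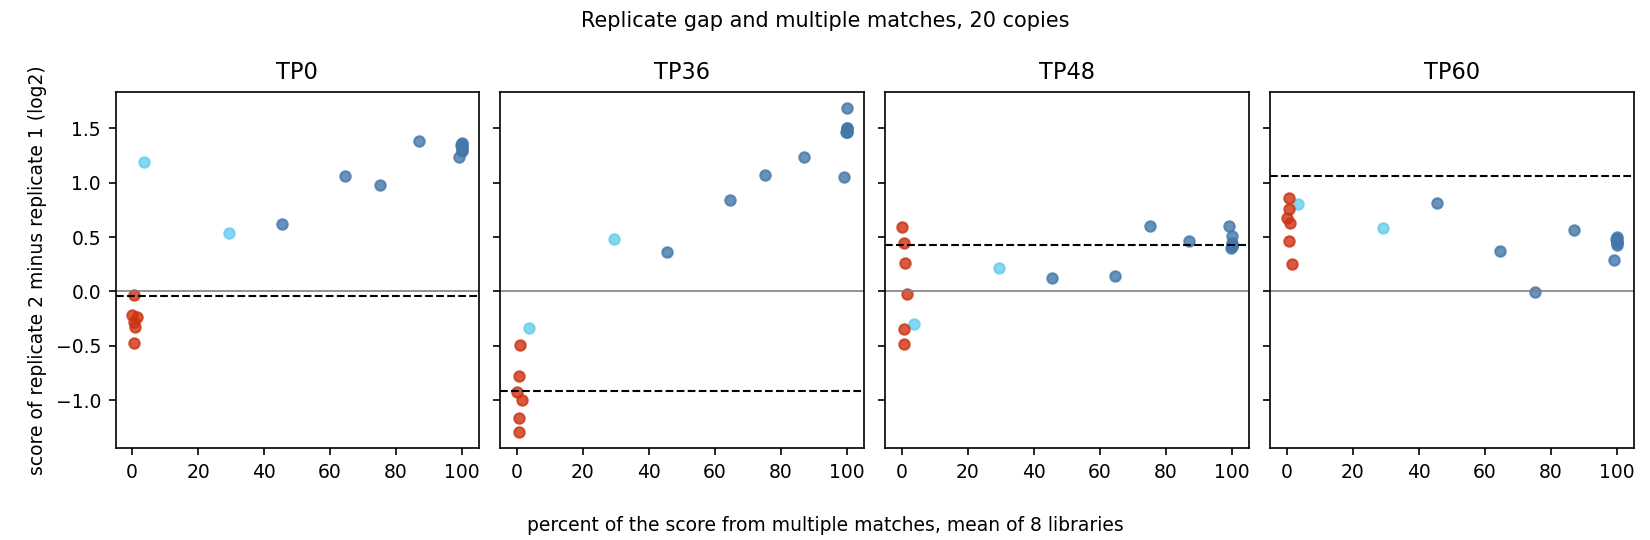
Score of replicate 2 minus score of replicate 1 (log2) for each of the 20 copies at each time point, against the percentage of the score from multiple matches averaged over 8 libraries. Red points are K1 to K6, light blue E1 and E12, blue the other E copies, and the dashed line is the difference of the medians of the 472 other occupied loci; copies near 100% lie far above this line at TP0 and TP36 and near or below it at TP48 and TP60.

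**Figure D4:**
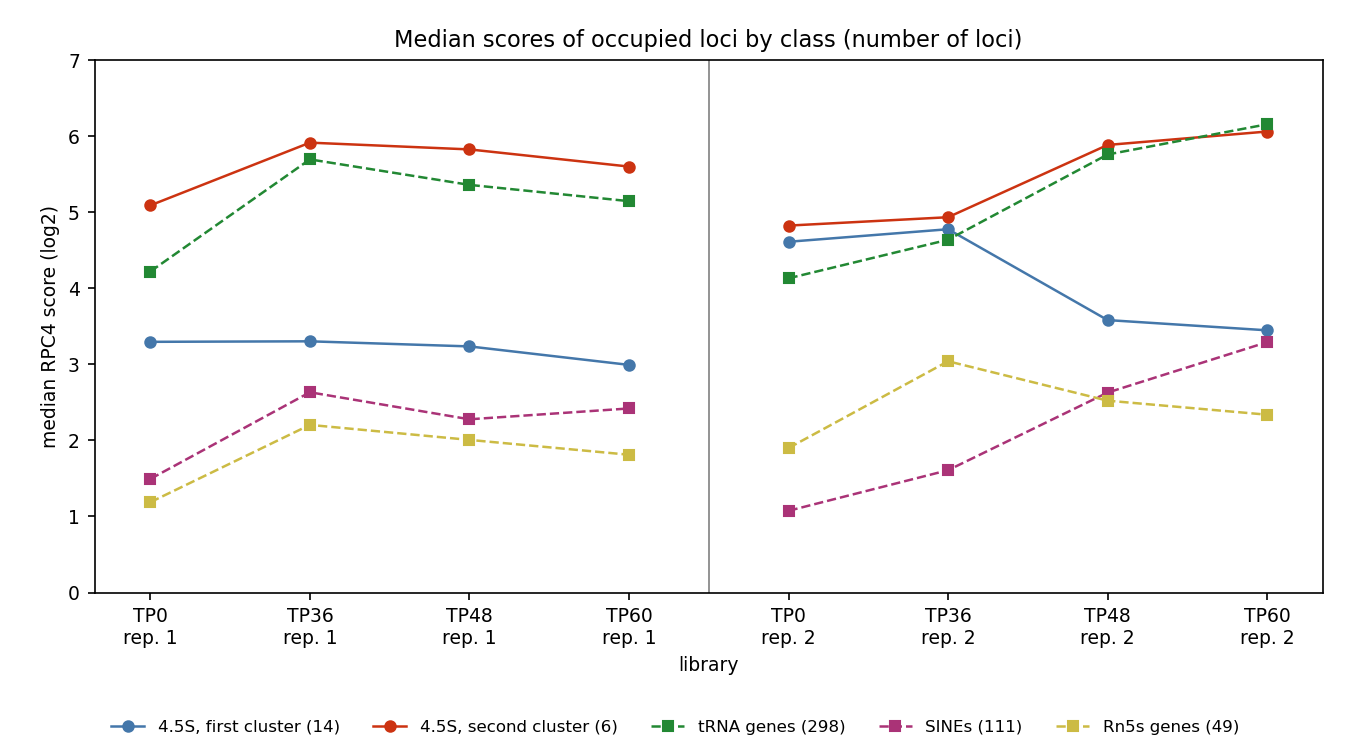
Median RPC4 score (log2) in each of the 8 libraries for both clusters of 4.5S copies (solid lines) and for tRNA genes, SINEs and Rn5s genes occupied in at least 1 library (dashed lines). The second cluster moves in the same direction as the tRNA genes from each time point to the next in both replicates. It stands less far above TP0 than they do, and SINEs are also above TP0 throughout. The first cluster is nearly level in replicate 1 and drops after TP36 in replicate 2.

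Copies also differed within each cluster. Among the K copies the SD over copies was 0.16 to 0.39 in a library, with K5 the lowest at TP0 in both replicates. Among the E copies it was 0.45 to 0.63, and 0.12 to 0.49 without E1 and E12. Of the array copies on the Pdia4 side of the gap, E10 to E13 had means at TP0 of 4.39, 4.41, 4.76 and 4.20, above the 3.73 to 3.99 of E2 to E9, while E14, with 3.91, lay within that range. The difference in level was not tested, since the scores of E2 to E9 cannot be assigned to single copies.

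Other Pol III loci close to the copies gave a local reference. Within 100 kb of a copy, 6 were listed. Rny3 and Rny1, the genes of the Y RNAs that bind the Ro protein, lie 18267 and 24712 bases beyond E14. Rny1 scored 2.50 and 3.08 at TP0, 4.64 and 4.05 at TP36, 4.64 and 4.76 at TP48, and 3.44 and 4.81 at TP60, and its changes of 1.56, 1.91 and 1.33 passed the test (q = 0.0334, 0.00912 and 0.0326, limma). Rny3 stood 0.67, 0.81 and 0.49 above TP0 and did not pass. A rise was thus called at Rny1 but not at any of the array copies beside it, and the difference between them was not tested.

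Beside K1, K3 and K5 lie B4A SINEs, 361 to 371 bases from the copy, so that the extended loci are 60 to 70 bases apart and long fragments may reach both. Their scores at TP0 were 5.15 and 4.37 beside K1, 4.96 and 4.34 beside K3, and 4.92 and 4.60 beside K5. None of the 3 passed the test in a comparison with TP0, and their changes of 0.73, 1.12 and 0.62 at TP48 were all positive. K5, which was called at TP48, thus has such a neighbour, while the table lists K4 and K6 as far from other Pol III loci. K6 is the only copy that the table places near a Pol II gene, although the nearest start of a protein-coding gene in GENCODE, that of Klrb1b, lies 16956 bases away. A B2 SINE 2713 bases beyond K6 scored 0.62 and 0.62 at TP0 and rose by 1.45 at TP48 (q = 0.0280, limma) and by 2.10 at TP60 (q = 0.00531).

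Loci with the profile most like that of each cluster were sought by Pearson correlation with the mean profile over 8 libraries, among 472 other occupied loci, as a description. For the second cluster these were a B1 SINE on chromosome 10 (62255334 to 62255433, r = 0.99), a B2 SINE on the same chromosome (8702849 to 8702948, r = 0.99) and the tRNA-Cys gene n-Tc56 on chromosome 11 (97658386 to 97658457, r = 0.99). n-Tc56 also had nearly the level of the K copies, differing from their mean by 0.23 on average, whereas the SINEs differed by 3.499 and 3.90. For the first cluster the 3 were Rn5s genes of chromosome 8, starting at 126101655, 126081390 and 126137314, with r of 0.65 to 0.68 and with up to 100.0% of multiple matches. All points share the libraries and their scaling.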

How the data were processed

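RPC4 ChIP-seq was analysed in 8 of the 29 samples of the series. Paired-end fragments were mapped by the authors to NCBI37, multiple matches included. For the deposited log2 scores, the authors divided ChIP by input fragment counts per extended locus after adding a pseudocount, and scaled library totals to their median. The deposited percent columns give the part of a score that came from multiple matches. The number of per-sample columns left unmapped was 0. Fragment counts and depth are unknown, so the spread between replicates, which the authors call biological, is the only error given. In every library, 1 locus had a score of 0.

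Scores were fitted as deposited with limma 3.58.1 (R 4.3.3), with 1 mean per time point over 8 libraries and 646 loci. Storey q-values used lambda from 0.05 to 0.95 and a spline (3 degrees of freedom). Calls needed q under 0.05 and a score above the cutoff in 1 or more libraries at either time point. Copies were named in full if called, of the second cluster, at most 50% from multiple matches, or highest or lowest of the first cluster at TP0. Further tools were Python 3.11.15, numpy 2.4.6, pandas 2.3.3 and matplotlib 3.10.9. The fit was tested on simulated data. Alternatives were Benjamini-Hochberg adjustment, a replicate block, fits restricted to both time points of a comparison, to occupied loci or without loci of over 50% multiple matches, both centrings, an intensity trend and leaving out each library. The members, groups and tests were chosen with earlier results of these data known.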

Additional observations from a re-analysis of the deposited data

How the results depend on the processing

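Depth is unknown and each time point had 2 libraries, so that a single library decided most calls. The number of copies changed was 0 at TP36, 3 at TP48 and 1 at TP60. With Benjamini-Hochberg adjustment 0 copies passed at TP48 and 0 at TP60, and a fit restricted to TP0 and TP48 gave 7 at TP48. A fit of occupied loci alone gave 20 at TP48 and 18 at TP60, but the estimated shares of true nulls were 0.035 and 0.051, so that loci with a high p pass. Centring on the median of all loci gave 20, 20 and 20 copies, all of them lower than at TP0, of which 20, 15 and 19 passed with Benjamini-Hochberg adjustment. It also gave falls by q at 66.7%, 52.5% and 60.8% of the occupied loci. Leaving out each library gave 0 to 4 copies at TP36 (4 without replicate 2 of TP36), 0 at TP48 and 0 to 4 at TP60. Between later time points, every alternative gave 0.

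Replicate numbers were shared by the time points, and the sample titles name each number as a series. Replicate differences at 492 loci correlated between time points by -0.28 to 0.53, and not all by over 0.1. These correlations do not settle whether the numbers pair the samples, and the main fit has no term for the replicate. With a replicate block 0, 1 and 1 copies changed at TP36, TP48 and TP60.

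With centring on all loci the median change was -1.49, -1.91 and -2.41 over all copies at TP36, TP48 and TP60, -1.61, -2.22 and -2.63 in the first cluster and -1.22, -0.73 and -1.10 in the second. Without copies of over 50% multiple matches it was 0.46, 0.90 and 0.76 over the 8 remaining copies, and 0.39, 0.44 and 0.31 over E1 and E12. Leaving out each library gave -0.28 to 0.73, -0.71 to 0.34 and -0.99 to 0.09 over all copies, -0.57 to 0.78, -1.18 to 0.18 and -1.35 to -0.053 in the first cluster, and -0.0185 to 1.03, 0.77 to 1.11 and 0.55 to 1.11 in the second, in the same order. Centring on loci below the cutoff in every library kept the sign of all 9 medians.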
